A study of Mus musculus with 16 samples.

Results

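Here 10 long noncoding RNAs are described across 4 RNA-seq libraries of cultured mouse cortical neurons. They are Meg3, Rian and Mirg of the imprinted cluster on chromosome 12, Ipw, H19 and Kcnq1ot1 of imprinted regions of chromosome 7, the nuclear RNAs Malat1, Neat1 and Miat, and Snhg11, a host gene of small nucleolar RNAs. The members were chosen by gene symbol, and 10 of 10 were among the 22440 genes of each deposited table. They were picked with the folds of the 3 comparisons below already known, so every value is a description of these libraries and none is a test.

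The neurons came from the cortex of Swiss-Webster mouse embryos at day 16 (E16) and were grown as primary cultures. One library, CTRL, came from cultures whose label names no treatment, and another, ETOP, from cultures labelled etoposide, a drug that traps type II topoisomerases on cut DNA, given at 5 µM for a time the labels do not state. A second control, CTRL2, also labelled with no treatment, served the NMDA library, made after NMDA, an agonist of one kind of glutamate receptor. By the labels, most experiments used 50 µM NMDA for 10 min and then 10 min without it. Each group had 1 library, no genetic change is named for any group, and nothing says how many cultures or embryos went into a library. The other 12 of the 16 samples hold chromatin and were not analysed here.

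Imprinted genes are read mainly from either the maternal or the paternal chromosome, and their clusters often hold long noncoding RNAs. On mouse chromosome 12, Meg3, Rian and Mirg are maternally expressed and carry small nucleolar RNAs and a long array of microRNAs, while the protein-coding Dlk1, Rtl1 and Dio3 are paternally expressed. Malat1 lies in nuclear speckles, bodies rich in splicing factors, and Neat1 is the scaffold of paraspeckles, bodies built on RNA-binding proteins such as Nono and Sfpq.

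Levels are FPKM, fragments per kilobase of transcript, scaled to the library's mapped fragments, as deposited. Fold is given as log2((first + 1)/(second + 1)), for genes at 1 FPKM or more in either library, and a 2-fold difference on this scale is the size rule. From the steps of low values, 1 fragment on 1 kb was worth about 0.0698 FPKM in CTRL, 0.0803 in ETOP, 0.0521 in CTRL2 and 0.0566 in NMDA, so a fragment weighed most, and depth was lowest, in ETOP. The 2 pairs were on different scales, with a median of all genes of 1.32 (log2) for CTRL2 over CTRL and of -0.32 for ETOP over CTRL, so differences relative to that median are given too. For NMDA over CTRL2 the median was 0.02. All 5 pan-neuronal markers measured were at 1 FPKM or more in each library, with summed levels of 511 FPKM in CTRL, 304 in ETOP, 1311 in CTRL2 and 1396 in NMDA. The 6 excitatory neuron markers summed to 94.9, 47.7, 286 and 295 FPKM in the same order, and the 7 inhibitory neuron markers to 95.9, 125, 280 and 281. The higher inhibitory sum in ETOP than in CTRL came with Sst, at 34.6 FPKM in CTRL and 87.9 in ETOP. Of the 7 inhibitory markers, 5 lay below 0 with etoposide and 2 above it, with a median log2 fold of -0.46. Summed over 8 genes, astrocyte markers were at 103, 54.3, 945 and 912 FPKM in the same order, oligodendrocyte-lineage markers at 20.6, 5.39, 195 and 190 with Sox10 listed at 0 in at least 1 library, and 7 progenitor markers at 89.0, 30.9, 418 and 366. The 6 microglial markers summed to between 0.350 and 4.11 FPKM. The part of these shifts in the noncoding RNAs' differences was not tested, and in cultures of mixed cells fewer cells of a type and less RNA per cell cannot be told apart.

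**Figure D1:**
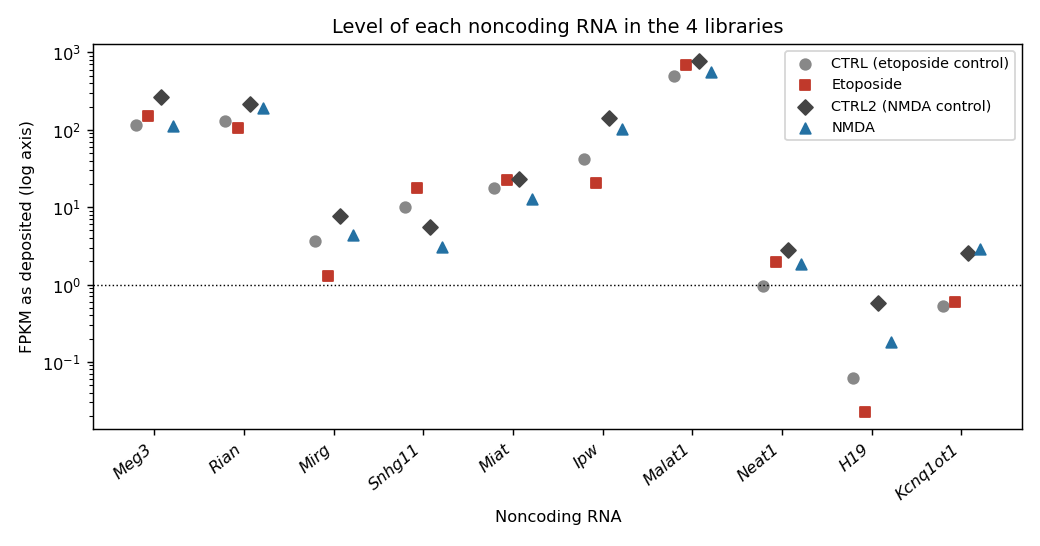
FPKM of the 10 noncoding RNAs (y axis, log scale) in CTRL, etoposide, CTRL2 and NMDA, 1 point per library with no replicates; the dotted line marks 1 FPKM. Malat1 is the highest of the 10 in each library and H19 the lowest, and the NMDA point lies under its control for 9 of the 10, all but Kcnq1ot1.

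The 10 RNAs ranged from among the most abundant genes to near the limit of detection. Malat1 was the highest, at 498 FPKM in CTRL, 680 in ETOP, 764 in CTRL2 and 567 in NMDA, and ranked between 25 and 122 among all genes. Rian and Meg3 came next, both above 100 FPKM in each library, with Rian above Meg3 in CTRL and NMDA and Meg3 above Rian in ETOP and CTRL2. Ipw lay between 20.6 and 143 FPKM, Miat between 12.8 and 23.0, Snhg11 between 3.04 and 17.5, and Mirg between 1.31 and 7.76. Neat1, Kcnq1ot1 and H19 were the lowest, except that in ETOP Mirg (1.31 FPKM) was below Neat1 (1.93), and H19 stayed under 1 FPKM in each library. Miat was above Snhg11 in each library, whereas Ipw was above Miat in CTRL, CTRL2 and NMDA and below it in ETOP. With 1 library per group no spread between cultures is known.

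With NMDA, 8 of the 9 noncoding RNAs that could be compared were lower than in CTRL2, where 42.8% of all 13028 genes compared lay below 0. The exception was Kcnq1ot1, and H19 was under the filter. Their median log2 fold was -0.46 as deposited and -0.49 relative to all genes. Meg3 was the 1 member at least 2-fold lower, a size reached downwards by 0.729% of the genes compared. None was at least 2-fold higher, as 0.438% of genes were as deposited and 0.414% relative to the median of all genes. The authors' deposited table for NMDA lists Meg3, Snhg11, Miat and Ipw as lower, 4 of the 38 genes it lists as lower, or 10.5%, while those 38 are 0.169% of all genes in the tables. That authors' deposited table lists 0 of the members as higher, and 0.111% of all genes. In that authors' deposited table Meg3 was 2.41-fold lower, Snhg11 1.83-fold, Miat 1.80-fold and Ipw 1.38-fold. How genes were picked for that list is not stated in the sources used here. These counts used the contrasts that chose the members and carry no evidence about them as a class.

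With etoposide the same RNAs split. Snhg11, Neat1, Malat1, Meg3 and Miat were above CTRL by 0.36 to 0.75 (log2), and Mirg, Ipw and Rian were below it by sizes given under each gene, while H19 and Kcnq1ot1 were under the filter. Thus 3 of 8 lay below 0, where 76.7% of all 10681 genes compared did, and the median of the 8 was 0.36 as deposited and 0.69 relative to all genes. Mirg was the 1 member at least 2-fold lower, a size reached downwards by 7.36% of genes, and 0 members were at least 2-fold higher as deposited, where 0.477% of genes were. Relative to the median of all genes, Snhg11 was the 1 member at least 2-fold higher, with 1.47% of genes past that size, and 0 members were 2-fold lower, where 2.08% of genes were. The authors' deposited table for etoposide lists 12 genes as higher and 680 as lower, and none of the 10 RNAs is among them, where the 680 are 3.03% of all genes and the 12 are 0.0535%.

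Between the controls, 8 of the 9 RNAs compared were higher in CTRL2 as deposited, with a median of 0.91 (log2). Ipw, Kcnq1ot1 and Meg3 were at least 2-fold higher, but 75.1% of all 12987 genes compared were. Snhg11 alone was lower in CTRL2, where 1.63% of genes lay below 0. Relative to the median of all genes the median of the 9 was -0.41, 8 of 9 lay below 0 and only Ipw above it, and Snhg11 was the 1 member at least 2-fold lower, as were 2.96% of genes, while 0 members were 2-fold higher on that scale, where 8.02% of genes were. The differences between the 2 controls were thus as large as many of those in the treated pairs. The comparisons of ETOP and of CTRL2 share CTRL, and those of NMDA and of CTRL2 against CTRL share CTRL2.

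**Figure D2:**
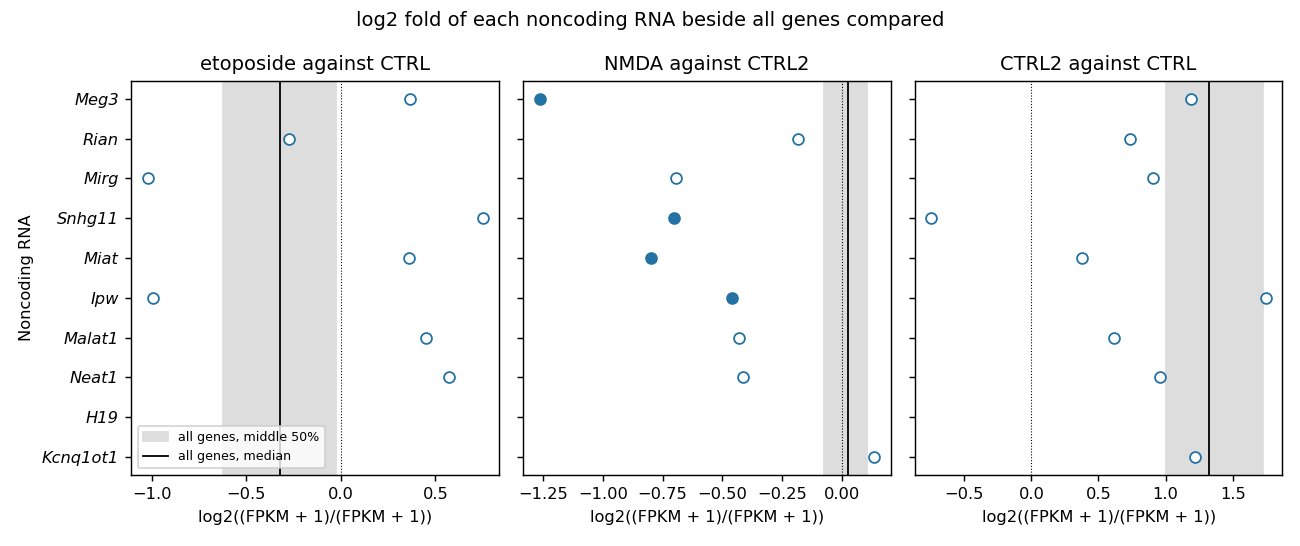
log2 fold of each noncoding RNA (x axis, pseudocount of 1 FPKM) in the 3 comparisons; the line and the grey band are the median and middle 50% of all genes compared, the dotted line is 0, filled points are genes in the authors' deposited table for that comparison, and RNAs under 1 FPKM in both libraries have no point. With NMDA the points lie left of the grey band except Kcnq1ot1, and with etoposide 5 lie right of it, Mirg and Ipw left of it and Rian within it.

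Meg3, a maternally expressed RNA of brain and other tissues with growth-restraining activity in human cell lines, gave the largest log2 fold with NMDA of the 9 compared. It is a lincRNA on the plus strand of chr12:110779206-110809939 (mm9), and its longest transcript in the GENCODE annotation of mm9 has 14548 bases in 5 exons. Meg3 was at 117 FPKM in CTRL, 151 in ETOP, 267 in CTRL2 and 111 in NMDA. As deposited, CTRL2 stood above the other 3 libraries and NMDA was close to CTRL, but the etoposide and NMDA pairs were on different scales. Relative to all genes, the log2 fold of NMDA over CTRL was -1.43. By the plain ratio NMDA was 2.41-fold below its own control, with a 95% exact counting interval of 2.38 to 2.45. That interval came from about 74617 fragments in CTRL2 and 28437 in NMDA, with the longest transcript taken. The log2 fold of -1.26 against CTRL2 was reached or passed downwards by 0.614% of all genes. With etoposide the log2 fold was 0.37, or 0.69 relative to all genes, at the 94.1 percentile. Such intervals cover counting error only, not the spread between cultures. Relative to all genes, CTRL2 lay 0.13 (log2) below CTRL, the opposite side from the deposited 1.19. The locus also holds Mir770 and, on the other strand, Gm17639, and whether counting used strand is not stated in the labels, so reads of these cannot be told apart where they overlap.

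The start of Meg3 is shown since Meg3 differed most with NMDA, beside the starts of the 3 other RNAs that the authors' deposited table for NMDA lists as lower and of Malat1, the most abundant member. RefSeq promoter windows (assembly GRCm38.p6), 250 bases before the start site to 50 after it, were found for 8 of the 10 RNAs, and not for H19 and Neat1. They were placed on mm9 by their 1 exact match each. Capitals mark the CREB-binding cyclic AMP response element (CRE, TGACGTCA), its half-site (TGACG) and the TATA box (TATAAA), on either strand, and a full CRE holds the half-site on both strands.
Meg3 promoter, chr12:110778956-110779255, plus strand: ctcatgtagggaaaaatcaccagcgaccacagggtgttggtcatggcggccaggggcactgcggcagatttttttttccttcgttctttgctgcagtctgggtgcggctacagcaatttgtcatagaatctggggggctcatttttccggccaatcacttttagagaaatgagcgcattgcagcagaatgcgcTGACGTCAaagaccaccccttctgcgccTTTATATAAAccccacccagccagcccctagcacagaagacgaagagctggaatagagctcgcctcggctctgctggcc
Miat promoter, chr5:112657919-112658218, minus strand: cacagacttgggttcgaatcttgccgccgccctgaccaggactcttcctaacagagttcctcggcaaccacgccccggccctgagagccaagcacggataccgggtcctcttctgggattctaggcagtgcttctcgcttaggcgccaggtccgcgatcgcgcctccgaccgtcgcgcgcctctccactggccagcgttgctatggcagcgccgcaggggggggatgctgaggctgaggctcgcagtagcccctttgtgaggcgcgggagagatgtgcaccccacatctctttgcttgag
Snhg11 promoter, chr2:158201199-158201498, plus strand: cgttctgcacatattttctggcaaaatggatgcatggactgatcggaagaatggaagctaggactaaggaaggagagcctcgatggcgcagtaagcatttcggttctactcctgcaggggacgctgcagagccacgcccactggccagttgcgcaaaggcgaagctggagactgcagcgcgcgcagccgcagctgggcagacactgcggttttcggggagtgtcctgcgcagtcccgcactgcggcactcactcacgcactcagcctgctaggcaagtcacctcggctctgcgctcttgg
Ipw promoter, chr7:66934199-66934498, minus strand: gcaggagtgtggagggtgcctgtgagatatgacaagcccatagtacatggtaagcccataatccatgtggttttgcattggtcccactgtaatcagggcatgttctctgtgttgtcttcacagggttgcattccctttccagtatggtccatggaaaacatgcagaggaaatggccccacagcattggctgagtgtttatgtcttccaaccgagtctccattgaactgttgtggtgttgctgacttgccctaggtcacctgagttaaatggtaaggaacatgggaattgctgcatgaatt
Malat1 promoter, chr19:5802623-5802922, minus strand: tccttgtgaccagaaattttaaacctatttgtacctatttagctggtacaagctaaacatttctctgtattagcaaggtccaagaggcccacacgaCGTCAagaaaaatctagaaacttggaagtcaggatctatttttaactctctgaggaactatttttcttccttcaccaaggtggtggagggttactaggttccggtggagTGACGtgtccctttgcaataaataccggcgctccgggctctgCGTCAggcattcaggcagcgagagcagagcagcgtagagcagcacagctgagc

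The Meg3 window held the full CRE starting 57 bases before the start site, and a TATA box on both strands starting 29 and 25 bases before it. Of 32851 RefSeq mouse promoter windows, 1.79% held the CRE and 13.6% the TATA box. Of the 8 RNAs with a window, Meg3 was the one with either. The half-site was found in 3 of 8, at 3 places in Malat1, once in Kcnq1ot1 and within the CRE of Meg3, against 20.8% of all windows. The AP-1 site (TGANTCA), bound by Fos and Jun proteins, was in 0 of 8 and in 7.81% of all windows, and the CArG box bound by Srf was in a second, downstream Meg3 window and in 1.63% of all. Miat, Snhg11 and Ipw, printed above with no capitals, held none of the motifs searched. A match is only these letters in this window.

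Rian, the next RNA of the cluster and host of many small nucleolar RNAs of the SNORD113 family, lies at chr12:110842155-110899921 on the plus strand. It was at 129 FPKM in CTRL, 106 in ETOP, 215 in CTRL2 and 189 in NMDA. Both treated libraries were slightly below their controls. NMDA was 1.14-fold lower (counting interval 1.11 to 1.16) and etoposide 1.21-fold lower (1.17 to 1.25). Relative to all genes the etoposide difference was 0.05 (log2), on the other side of 0 from the deposited -0.27, and that of NMDA was -0.21.

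Mirg, a host RNA of the microRNAs at the far end of the array, lies at chr12:110973191-110987667 on the plus strand, and 10 microRNAs share its deposited locus. It was at 3.67 FPKM in CTRL, 1.31 in ETOP, 7.76 in CTRL2 and 4.42 in NMDA, from about 100, 31, 284 and 149 fragments. Again each treated library was below its control. The plain ratio was 2.81-fold lower with etoposide (counting interval 1.86 to 4.34) and 1.76-fold lower with NMDA (1.43 to 2.15). On the log2 scale these were -1.02 and -0.69, and relative to all genes -0.70 and -0.72.

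The 3 RNAs of the cluster did not keep a fixed ratio. Meg3 over Rian was 0.905 in CTRL, 1.42 in ETOP, 1.24 in CTRL2 and 0.585 in NMDA, so it was higher with etoposide and lower with NMDA than in the paired control. Mirg was 2.84% of Rian in CTRL, 1.23% in ETOP, 3.61% in CTRL2 and 2.34% in NMDA, lower in both treated libraries. These ratios are taken within a library and do not depend on its scale.

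**Figure D3:**
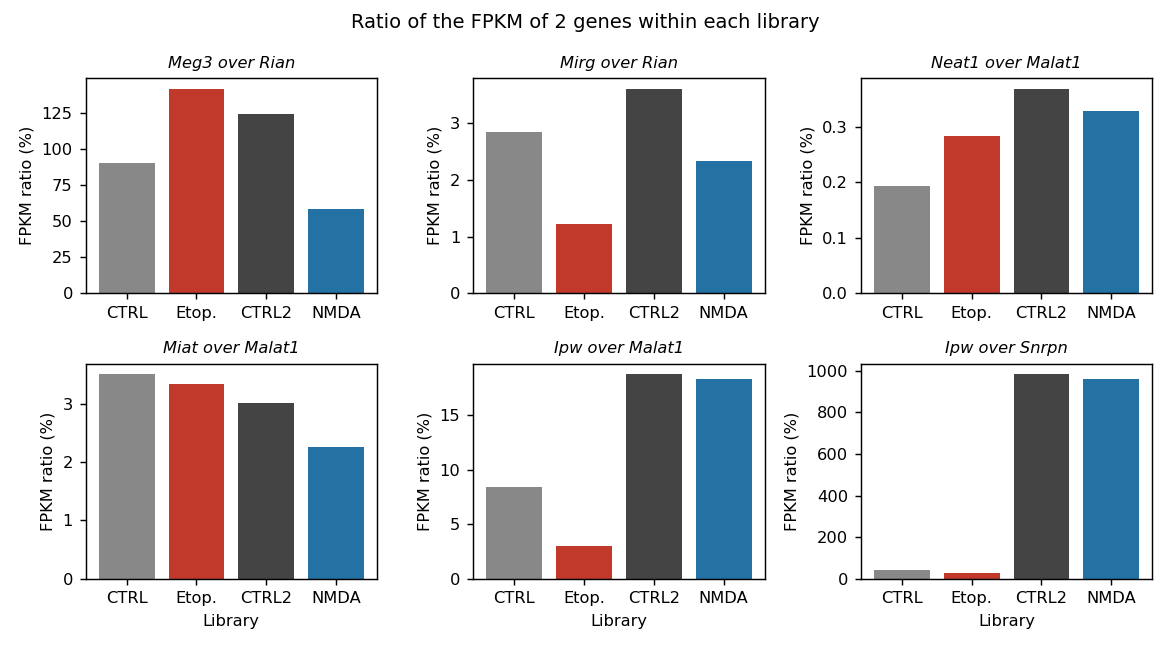
Ratio of the FPKM of 2 genes within each library (y axis, percent, from 0), 1 bar per library with no replicates; Etop. is the etoposide library. Meg3 over Rian is highest with etoposide, at 142%, and lowest with NMDA, at 58.5%, and Ipw over Snrpn is 42.0% or less in the etoposide pair and 961% or more in the NMDA pair.

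Of the other genes around the cluster, Rtl1, a protein-coding gene derived from a retrotransposon and read from the strand opposite to the noncoding RNAs, was at 1.84 FPKM in CTRL, 1.11 in ETOP, 1.89 in CTRL2 and 1.27 in NMDA. Dlk1, which encodes a transmembrane protein of the Notch ligand type, was at 0.0555, 0.0462, 1.83 and 1.12 FPKM. Both were below their control in NMDA, as Meg3, Rian and Mirg were. Rtl1, however, shares its deposited locus with microRNAs of the cluster. Whether counting used strand is not stated, so reads of the opposite strand cannot be told apart from those of Rtl1. Dio3, which encodes a deiodinase of thyroid hormone, was under the filter, at 0.173, 0.0752, 0.260 and 0.165 FPKM. Of the outer genes that passed it, Begain, a postsynaptic protein gene, was at 25.2 and 25.7 FPKM, Wdr25 at 2.17 and 2.55, and Ppp2r5c, a subunit gene of protein phosphatase 2A, at 64.8 and 68.7 in CTRL2 and NMDA. Over the 5 genes of the list compared, without the 3 noncoding RNAs, the median log2 fold with NMDA was 0.03. Of the 5, 2 lay below 0, where 42.8% of all genes did. With etoposide all 3 compared lay below 0, where 76.7% of all genes did, with a median of -0.43, or -0.11 relative to all genes.

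The microRNA loci of the cluster gave sparse values that differed between libraries. Of 56 such loci in the tables, 0 were above 0 in CTRL and in ETOP, 22 in CTRL2 and 8 in NMDA, and 3 were above 0 in both CTRL2 and NMDA. One of the 56, Mir1906-1, is placed far outside the cluster in the deposited tables and was listed at 0 in each library. A locus shorter than a sequenced fragment can swing between 0 and a high FPKM on few fragments, so no fold is given. MicroRNA loci elsewhere were not counted, so whether these numbers are particular to the cluster was not tested. The authors' deposited table for NMDA lists 6 of them, where it lists 0.169% of all genes as lower and 0.111% as higher. In it Mir382 (226 FPKM in CTRL2), Mir679 (203), Mir487b (147) and Mir1193 (57.0) are listed at 0 with NMDA. In the same authors' deposited table Mir654 (146 FPKM with NMDA) and Mir1197 (79.1) are listed at 0 in CTRL2. The 2 directions thus both occurred among the 6. Their mature sequences, from RefSeq (GRCm38.p6, chromosome 12, plus strand), are printed to show which microRNAs these loci make, with the seed, bases 2 to 8, in capitals.
mmu-miR-1193-5p: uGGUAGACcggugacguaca
mmu-miR-1193-3p: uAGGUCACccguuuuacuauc
mmu-miR-1197-5p: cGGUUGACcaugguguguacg
mmu-miR-1197-3p: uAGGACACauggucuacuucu
mmu-miR-679-5p: gGACUGUGaggugacucuuggu
mmu-miR-679-3p: aGCAAGGUccuccucacaguag
mmu-miR-654-5p: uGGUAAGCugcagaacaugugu
mmu-miR-654-3p: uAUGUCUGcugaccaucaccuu
mmu-miR-487b-5p: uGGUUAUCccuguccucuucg
mmu-miR-382-5p: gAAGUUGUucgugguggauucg
mmu-miR-382-3p: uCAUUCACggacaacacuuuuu

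The 11 mature sequences had 11 different seeds, so no 2 of them share a seed family. The values above are for the loci in total RNA and not for mature microRNAs.

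**Figure D4:**
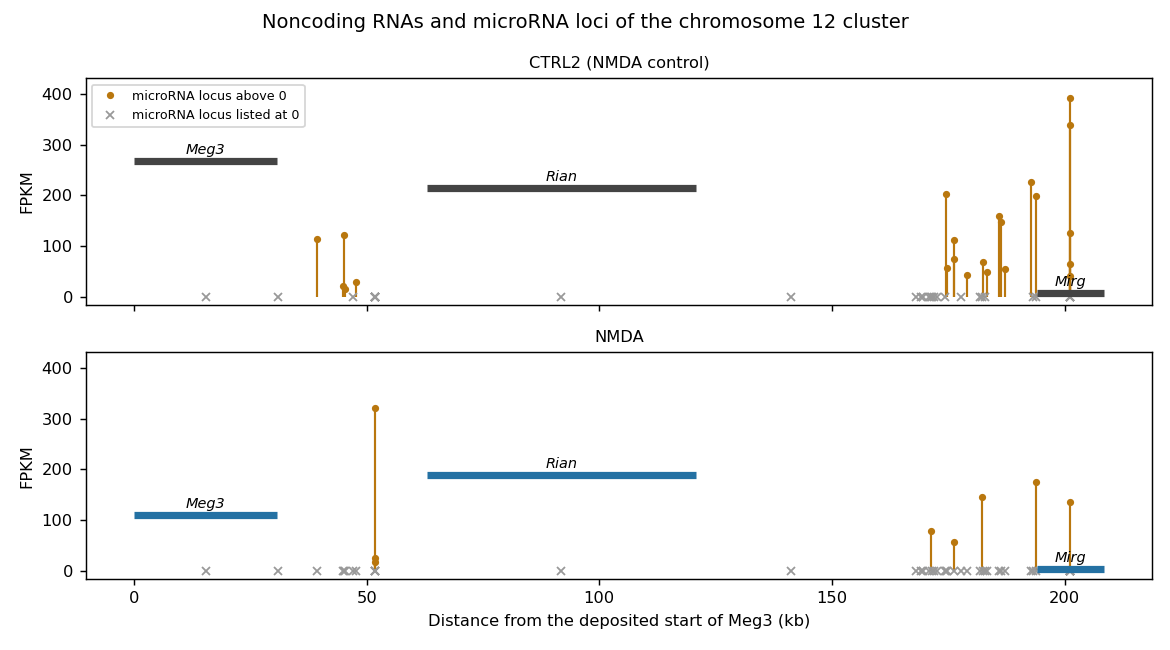
FPKM (y axis) of Meg3, Rian and Mirg, drawn as bars over their extent, and of microRNA loci, drawn as points, against the distance from the deposited start of Meg3 in kb, in CTRL2 and NMDA; loci deposited under a host's extent are drawn at its middle and crosses are loci listed at 0. Meg3 goes from 267 to 111 FPKM and Rian from 215 to 189, and 22 microRNA loci are above 0 in CTRL2 and 8 in NMDA. MicroRNA loci elsewhere were not counted.

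Malat1, a single-exon RNA kept in nuclear speckles, lies at chr19:5795690-5802671 on the minus strand. Its levels, given above, were higher in ETOP than in CTRL and lower in NMDA than in CTRL2. The plain ratio was 1.36-fold higher with etoposide (counting interval 1.35 to 1.38) and 1.35-fold lower with NMDA (1.33 to 1.36). The log2 folds were 0.45 and -0.43, and relative to all genes 0.77 and -0.45. CTRL2 was 1.53-fold above CTRL as deposited, yet 0.71 (log2) below it relative to all genes.

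Neat1, the paraspeckle scaffold, was scarce. Its deposited locus, chr19:5842302-5845478 on the minus strand, spans 3.18 kb, while the GENCODE gene of mm9 spans 20.8 kb, so the value covers the part near the start that the short and long forms share. Neat1 was at 0.969 FPKM in CTRL, 1.93 in ETOP, 2.82 in CTRL2 and 1.87 in NMDA, from about 42, 72, 163 and 99 fragments. ETOP and NMDA, at almost the same level as deposited, lay above and below their own controls. The plain ratio was 1.99-fold higher with etoposide (counting interval 1.33 to 2.96) and 1.51-fold lower with NMDA (1.17 to 1.97). Neat1 was 0.194% of Malat1 in CTRL, 0.284% in ETOP, 0.370% in CTRL2 and 0.329% in NMDA.

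Miat, a spliced nuclear RNA of neurons also known as Gomafu, lies at chr5:112642248-112657968 on the minus strand. It was at 17.5 FPKM in CTRL, 22.7 in ETOP, 23.0 in CTRL2 and 12.8 in NMDA. As deposited, the NMDA library was the lowest of the 4, and CTRL lay above it and below both ETOP and CTRL2. The log2 fold of CTRL2 over CTRL was 0.38 as deposited and -0.95 relative to all genes. NMDA was 1.80-fold lower (counting interval 1.70 to 1.90), a log2 fold of -0.80, and etoposide 1.3-fold higher (1.23 to 1.38). As a share of Malat1, Miat was 3.50% in CTRL, 3.34% in ETOP, 3.01% in CTRL2 and 2.25% in NMDA.

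Snhg11, host of small nucleolar RNAs of the SNORA71 family, lies at chr2:158201374-158211881 on the plus strand and is typed protein-coding in the GENCODE annotation of mm9. It was at 10.0 FPKM in CTRL, 17.5 in ETOP, 5.57 in CTRL2 and 3.04 in NMDA. Both libraries of the etoposide pair were above both of the NMDA pair. Etoposide was 1.75-fold above its control (counting interval 1.60 to 1.91) and NMDA 1.83-fold below its own (1.59 to 2.10). Between the controls CTRL2 was 1.80-fold below CTRL (1.62 to 2.0), a log2 difference of -0.74, or -2.07 relative to all genes. Its neighbours, relative to all genes, lay on both sides of 0 between the controls, 3 of 6 below it, and with etoposide, 3 of 5 below it. With NMDA 5 of 6 neighbours were higher, where 42.8% of all genes lay below 0. Slc32a1, the vesicular transporter of inhibitory neurons, was among the 5 (17.2 FPKM in CTRL2 and 20.1 in NMDA).

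Ipw, a spliced RNA of the Prader-Willi region, lies at chr7:66874528-66934248 in the tables. It was at 42.1 FPKM in CTRL, 20.6 in ETOP, 143 in CTRL2 and 104 in NMDA. Both treated libraries were below their controls, and as deposited both libraries of the NMDA pair were above both of the etoposide pair. Relative to all genes, the log2 fold of NMDA over CTRL was -0.07. Etoposide was 2.04-fold lower by the plain ratio, a log2 fold of -0.99, or -0.67 relative to all genes, and NMDA was 1.38-fold lower, a log2 fold of -0.46. No transcript length was matched, so no counting interval is given. Snrpn, the splicing-protein gene of the same region, went the other way between the pairs, at 100 FPKM in CTRL, 71.6 in ETOP, 14.6 in CTRL2 and 10.8 in NMDA. Ipw was thus 42.0% and 28.8% of Snrpn in CTRL and ETOP, and 984% and 961% in CTRL2 and NMDA. The largest difference in this ratio lay between the pairs, and within each pair the treated library was lower. Like Ipw, Snrpn was lower than its control in both treated libraries, with log2 folds of -0.48 and -0.40. Ube3a, the ubiquitin ligase gene of the region, was at 12.7, 8.12, 29.7 and 35.0 FPKM in CTRL, ETOP, CTRL2 and NMDA, lower with etoposide and higher with NMDA. Ndn, a paternally expressed gene of neurons, was at 62.7, 59.0, 174 and 173 FPKM, and Magel2 at 0.527, 1.29, 1.57 and 1.71. Mkrn3 was at 6.62, 6.43, 10.1 and 10.7 FPKM and Peg12 at 0.215, 0.232, 1.14 and 1.09. Over the genes of that list compared, without Ipw, 4 of 5 lay below 0 with etoposide, where 76.7% of all genes did. With NMDA 3 of 6 did, beside 42.8% of all genes, and the medians were -0.09 and 0.03 (log2). The etoposide median relative to all genes was 0.24, with 3 of 5 above 0.

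Kcnq1ot1, the paternally expressed antisense RNA that silences neighbours of Kcnq1, shares a deposited locus of 319.8 kb with Kcnq1, chr7:150293159-150612947. It was at 0.521 FPKM in CTRL, 0.598 in ETOP, 2.54 in CTRL2 and 2.89 in NMDA. The etoposide pair was under the filter, and NMDA was 1.14-fold above its control, a log2 fold of 0.13. Kcnq1 itself stayed under 0.1 FPKM in each library. Cdkn1c, a cell cycle inhibitor gene of that cluster, was at 0.404, 0.323, 3.35 and 2.93 FPKM in CTRL, ETOP, CTRL2 and NMDA. Cd81, Tssc4, Nap1l4 and Osbpl5, at the edges of the cluster, had log2 folds from -0.59 to -0.03 with etoposide, and with NMDA from -0.16 to 0.02. Over the genes of that list compared, without the members, 4 of 4 lay below 0 with etoposide, where 76.7% of all genes did. Their median was -0.37, or -0.05 relative to all genes with 2 of 4 below 0. With NMDA 4 of 5 lay below 0, where 42.8% of all genes did, with a median of -0.07.

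H19, the maternally expressed RNA next to the growth factor gene Igf2 and host of Mir675, lies at chr7:149761437-149764051 on the minus strand. It was at 0.0616 FPKM in CTRL, 0.0227 in ETOP, 0.575 in CTRL2 and 0.179 in NMDA, from about 2, 1, 25 and 7 fragments. H19 was low in each library and under the filter in all 3 comparisons. The plain ratio was 3.21-fold lower with NMDA, with a counting interval of 1.38 to 9.0, and no difference was detectable at this depth with etoposide. Igf2 was low as well, at 0.135, 0.109, 0.717 and 0.489 FPKM.

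Lists of related genes were set beside the 10 RNAs. Of other long noncoding RNAs, 15 of 21 compared were above CTRL with etoposide, where 76.7% of all genes were below it. Their median was 0.33 (log2), or 0.65 relative to all genes, close to the 0.36 and 0.69 of the 8 members compared. Each Snhg gene of the list lay above 0. Tug1, Sox2ot, Peg13, Dlx1as, Dlx6os1 and Airn were the 6 below it, with log2 folds from -0.82 to -0.34. Of those 21, 3 were at least 2-fold higher, as 0.477% of all genes were, namely Snhg8 (3.52 FPKM in CTRL and 8.97 in ETOP), Xist, the RNA of X inactivation (14.1 and 29.9), and Snhg1 (6.74 and 14.8), and Snhg3 was at 2.78 and 6.30 FPKM. Snhg1, Snhg3 and Snhg8 are host genes of small nucleolar RNAs, as Snhg11 is. With NMDA the other long noncoding RNAs had a median of -0.04, against the -0.46 of the 9 members compared. Of them 18 of 26 lay below 0, where 42.8% of all genes did. Snhg9 was listed at 0 with NMDA and at 10.8 FPKM in CTRL2. Its deposited locus, chr17:24856476-24856910, is short, and whether this 0 reflects a loss of the RNA was not tested. Snhg3 was at 8.45 FPKM in CTRL2 and 6.00 in NMDA, Snhg6 at 71.9 and 96.3, and Pisd-ps1, a pseudogene transcript, at 35.1 and 19.4.

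For imprinted genes elsewhere in the genome, 25 of 30 lay below 0 with etoposide, a share near the 76.7% of all genes, with a median of -0.47 (log2), or -0.15 relative to all genes, and Grb10, an adaptor of insulin-type receptors, is in the authors' deposited table as 2.46-fold lower, from 7.80 to 3.17 FPKM. Rasgrf1, an exchange factor gene for Ras, was at 7.41 FPKM in CTRL and 3.13 in ETOP. With NMDA 4 of 33 lay below 0 and 29 above, where 42.8% of all genes lay below 0, with a median of 0.10, and Zdbf2 is in the authors' deposited table as 1.33-fold higher, from 4.78 to 6.35 FPKM. Kcnk9, a potassium channel gene, was at 26.7 FPKM in CTRL2 and 33.4 in NMDA, and Mest at 31.7 and 38.1. Against CTRL instead of CTRL2, relative to all genes, the median of that list was -0.17. Meg3, Rian, Mirg and Ipw lay below 0 with NMDA, and Kcnq1ot1 above it, but these were chosen with their folds known. Of the other genes of the chromosome 12 and central chromosome 7 clusters, 2 of 5 and 3 of 6 lay below 0 too.

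The protein partners of the nuclear RNAs were set beside all genes, of which 76.7% lay below 0 with etoposide and 42.8% with NMDA. Of 22 paraspeckle proteins, 19 lay below 0 with etoposide, with a median of -0.44 (log2), or -0.11 relative to all genes, Nono at 26.01 FPKM in CTRL and 14.6 in ETOP and Sfpq at 26.3 and 18.0 among them, while Neat1 was higher. With NMDA their median was 0.02 and 10 of 22 lay below 0. Of 26 nuclear speckle proteins, 15 lay below 0 with etoposide, with a median of -0.09. Relative to all genes 22 of the 26 lay above 0, with a median of 0.24, and Srsf7, a splicing factor gene, was at 12.3 FPKM in CTRL and 19.8 in ETOP. With NMDA 17 of 26 lay below 0, with a median of -0.05, Prpf38b at 9.59 and 6.96 FPKM and Luc7l3 at 20.8 and 15.9 in CTRL2 and NMDA at the low end.

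Genes of the regions around the nuclear RNAs were counted in the same way. Around Malat1 and Neat1, 5 of 9 neighbours lay below 0 with etoposide, where 76.7% of all genes did, and 6 of 11 with NMDA, where 42.8% did, with medians of -0.04 and -0.08 (log2). Relative to all genes, 8 of the 9 lay above 0 with etoposide, with a median of 0.28. Around Miat, 6 of 7 lay below 0 with etoposide, with a median of -0.36, or -0.04 relative to all genes, and 3 of 7 with NMDA, with a median of 0.06. Sez6l, a neuronal membrane protein gene of the region around Miat, with other genes between them, is in the authors' deposited table for etoposide. There it is 4.04-fold lower, from 13.4 to 3.32 FPKM. In CTRL2 and NMDA Sez6l was at 30.8 and 36.5 FPKM. Of the early-response transcription factors, the authors' deposited tables list 4 as higher with etoposide and 5 with NMDA, beside 0.0535% and 0.111% of all genes. Fos, Fosb and Npas4 are in both, Fos 5.49-fold with etoposide and 1.55-fold with NMDA. With etoposide 5 of 15 factors lay below 0, where 76.7% of all genes did. Egr3 was the 1 at least 2-fold lower, from 3.78 to 1.14 FPKM, as 7.36% of genes were. With NMDA 7 of 17 lay below 0, where 42.8% of all genes did. The median of these factors was 0.82 with etoposide and 0.08 with NMDA.

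**Figure D5:**
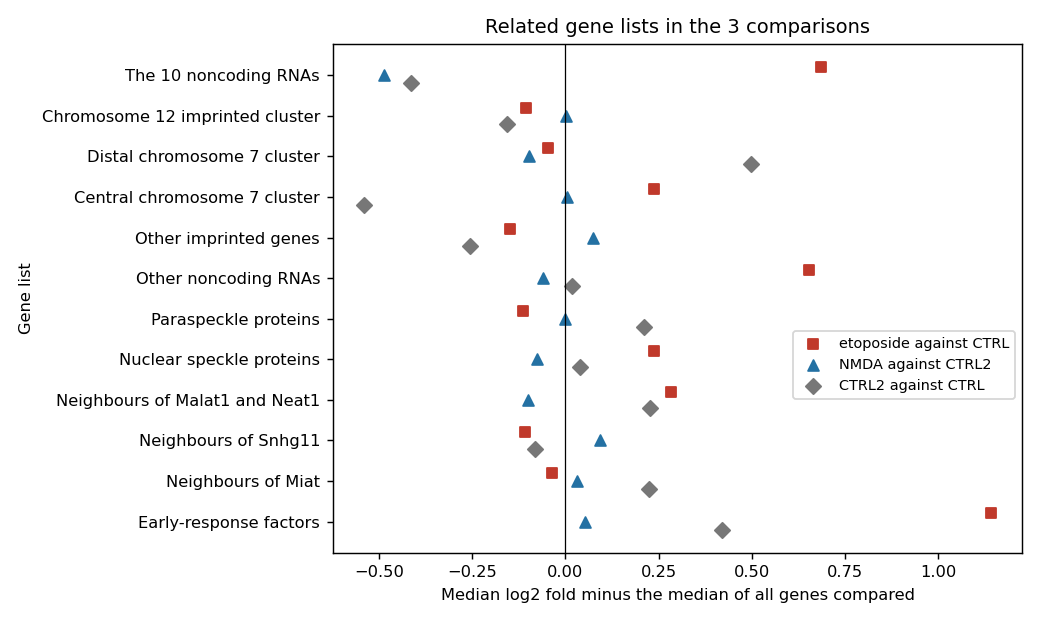
Median log2 fold of each gene list minus the median of all genes compared (x axis) for etoposide against CTRL, NMDA against CTRL2 and CTRL2 against CTRL; the lists other than the first leave out the 10 RNAs, and no error is drawn since each library stands alone. Of the 10 RNAs, the 8 compared with etoposide lie at 0.69, beside the other noncoding RNAs at 0.65. The 9 compared with NMDA lie at -0.49, where the other lists lie between -0.10 and 0.09.

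For the cluster RNAs, the genes with the most similar pattern were found by the Euclidean distance between centred log2(FPKM + 1) values over the 4 libraries, among genes at 10 FPKM or more in any library. Nearest to Meg3, of 7371 genes, were Snord16a, a small nucleolar RNA (distance 0.28, with 400 FPKM in CTRL, 523 in ETOP, 745 in CTRL2 and 323 in NMDA), Leng8 (0.46, with 10.9, 16.5, 21.8 and 13.5 FPKM) and Snord35a, also a small nucleolar RNA (0.51). Leng8 is in the authors' deposited table for NMDA as 1.61-fold lower. Nearest to Rian were Celsr3, a cadherin gene (0.07), Dusp11 (0.08) and Pick1 (0.08), and among those nearest to Mirg were Ifitm3 (0.25) and Plbd2 (0.37). With 4 libraries such likeness is a description only.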

How the data were processed

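The 4 libraries, 1 per group, were prepared from total RNA for paired-end sequencing, per the labels' protocols. Cufflinks 2.0.0, Cuffdiff, TopHat and Bowtie, with BWA, HOMER and Picard, stand in the submitters' processing notes beside the build mm9, without their roles. FPKM values were computed by the authors and used as deposited. The authors also deposited a table of control and treated FPKM per treatment, of 692 and 63 genes, equal to the library tables within a relative tolerance of 0.0001.

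Groups follow the sample titles. The 10 RNAs and all lists were chosen with earlier results of these data known. Folds used a pseudocount of 1 FPKM, which understates the change of low genes, and a filter of 1 FPKM in either library. Since each group has 1 library, nothing was tested and no p-value is given. Genes named are the members, list genes in the authors' deposited tables, genes of the 3 imprinted clusters, up to 4 others per list by size of fold and the 3 nearest patterns of 3 members. One gene that this rule takes is not reported here. Nono, Sfpq, Egr3 and the other long noncoding RNAs below CTRL with etoposide were also named, after their values were seen. Fragment numbers came from the FPKM steps of single-exon genes and the longest GENCODE transcript of mm9 inside each deposited locus, and are approximate. Where shorter transcripts contribute, these numbers are too high and the counting intervals too narrow. Counting intervals are 95% exact binomial. A level of 3 fragments on 1 kb corresponds to 0.156 to 0.241 FPKM. The fold calculation was tested on simulated data with planted changes, and the FPKM steps themselves were not. Motifs were searched on both strands. Python 3.11.15, pandas 2.3.3, NumPy 2.4.6, SciPy 1.17.1 and matplotlib 3.10.9 were used. Alternatives were another pseudocount, other filters, scaling to the median or upper quartile, the other control and a 1.5-fold rule.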

Additional observations from a re-analysis of the deposited data

How the results depend on the processing

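Leaving out a library was not possible with 1 library per group. No paired analysis was possible because each group has 1 library. The number of the 10 RNAs at least 2-fold different with etoposide, 1 as deposited, was 2 with a pseudocount of 0.1 FPKM, 0 with a filter at 5 FPKM, 2 with upper quartile scaling, 5 against the other control (relative, as below), and 3 at 1.5-fold. With NMDA, 1 as deposited, it was 5 against the other control and 4 at 1.5-fold. Between the controls, 3 as deposited, it was 5 with a pseudocount of 0.1, 1 relative to the median and 8 at 1.5-fold. The median log2 fold of the RNAs with etoposide, 0.36, was 0.22 with no filter, 0.69 relative to the median of all genes, 0.80 with upper quartile scaling and 0.85 against the other control. With NMDA, -0.46, it was -0.57 with a pseudocount of 0.1, -0.69 with a filter at 5 FPKM and -1.14 against the other control. Between the controls, 0.91, it was 1.06 with a pseudocount of 0.1, 0.73 with a filter at 5 FPKM, -0.41 relative to the median and -0.47 with upper quartile scaling.

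Between the controls, values of at least 2-fold or list medians changed side only under scaling. Meg3 was -0.13 relative to the median and -0.45 with upper quartile scaling, and Kcnq1ot1 -0.10 relative to the median. Under these 2 scalings, in that order, the chromosome 12 list was -0.16 and -0.27, the central chromosome 7 list, 0.78 as deposited, -0.54 and -0.29, and the other imprinted genes -0.26 and -0.33. With upper quartile scaling the other long noncoding RNAs were -0.0182, the paraspeckle proteins -0.0419 and the speckle proteins -0.19. The neighbours of Snhg11 were -0.0809 relative to the median. The cause of these shifts was not tested beyond the scaling itself. Meg3 with NMDA lay between -1.43 and -1.26 under 7 settings, the deposited scale included. Low fragment numbers limit H19, Mirg and Neat1.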
